A study of Mus musculus with 20 samples.

Results

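E14-mES and GFPoct4 are a pair of mouse embryonic stem (ES) cell samples, compared here gene by gene over 8 of the 20 arrays of the series: the 4 whose titles name E14-mES and the 4 whose titles name GFPoct4. Total RNA was measured on Illumina bead arrays, on which each probe is a short sequence carried on many beads and read as a fluorescence intensity. The other 12 arrays, 4 each of FVB-sFB, C57-mES and sFB-protein-iPS, enter only as points of reference and in the estimate of the spread. The source and cell type fields call all samples embryonic stem cell, so for FVB-sFB they conflict with the name, which the series title, on skin fibroblasts, goes with. Untreated and control groups are not named. Beyond the names, the labels give no genotype, reporter, strain, passage, sex, culture medium or feeder layer for either group, and do not say whether the 4 arrays of a group are separate cultures. The p-values therefore measure only the spread between arrays, which may be technical, and having 4 arrays a group limits how precise they are.

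ES cells are derived from the inner cell mass of the blastocyst and divide without limit while keeping the ability to form every tissue of the body. A small network of transcription factors around Pou5f1 (Oct4), Sox2 and Nanog maintains this state, and the cytokine LIF is commonly supplied to hold it. Many mouse ES lines are grown on a layer of growth-arrested fibroblasts, called feeder cells, and others without one.

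Levels are given as log2 of the background-corrected, quantile-normalized intensity, and a difference is E14-mES minus GFPoct4 on that log2 scale. A gene was called where the Benjamini-Hochberg adjusted p of limma's moderated test was under 0.05 and the difference at least 1 in size, that is, 2-fold. A probe is said to be above background on an array where it exceeded the level that 95% of 1305 probes of odorant and pheromone receptor genes stayed under on that array. Between 50.39% and 53.49% of probes passed that level on each of the 8 arrays. The ES cell label was checked with Pou5f1, Nanog, Sox2, Zfp42, Esrrb, Dppa5a, Utf1 and Fgf4, of which 8 of 8 were above background on all 4 arrays of both groups. Summed, their linear level ranged from 100887 to 111669 in E14-mES and from 106594 to 123996 in GFPoct4, and was 802 in FVB-sFB.

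One array of each group stood apart. E14-mES array 4 lay at least 2-fold from the mean of the other 3 arrays of its group for 320 genes, 71 above and 249 below. GFPoct4 array 1 did so for 198 genes, 5 above and 193 below, while each of the remaining 6 arrays had 0 or 1 such gene. The deviations had much in common: 84 genes were in both sets, 26.2% of the first and 42.4% of the second, with the same sign in 84 of 84. Genes of oxidative phosphorylation, the electron transport chain and ATP synthase of the mitochondrion, had a median deviation of -0.63 on E14-mES array 4 and -0.57 on GFPoct4 array 1, beside 0.00 and 0.01 over all genes. Cox7a1, a subunit of cytochrome oxidase, was the gene furthest below on GFPoct4 array 1, at 9.25 against 11.64 to 11.84 on the other 3. Pfn1 (profilin, an actin-binding protein) was at 9.71 on E14-mES array 4 against 11.61 to 11.74. In the other direction, the kinase gene Prkd3 was at 11.62 on E14-mES array 4 against 9.93 to 10.13. Counts below are therefore also given without both arrays.

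Of 16593 genes, 325 were called, which is 1.96%. Of these, 126 (0.759% of all genes) were higher in E14-mES and 199 (1.2%) were higher in GFPoct4, and the 4 arrays of each group did not overlap for 123 and 197 of them. The call rule itself favours genes whose groups do not overlap, so these counts add no support to the calls. Leaving out both arrays that stood apart gave 311 calls, 122 and 189, of which 285 were among the 325. The balance of directions depended on the scaling. It was 38.8% higher in E14-mES here, 56.3% after median centring and 74.7% in the authors' log2 value table, where the median of all genes was itself shifted by 0.17. Without both arrays it was 39.2%, 41.6% and 45%, respectively.

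**Figure D1:**
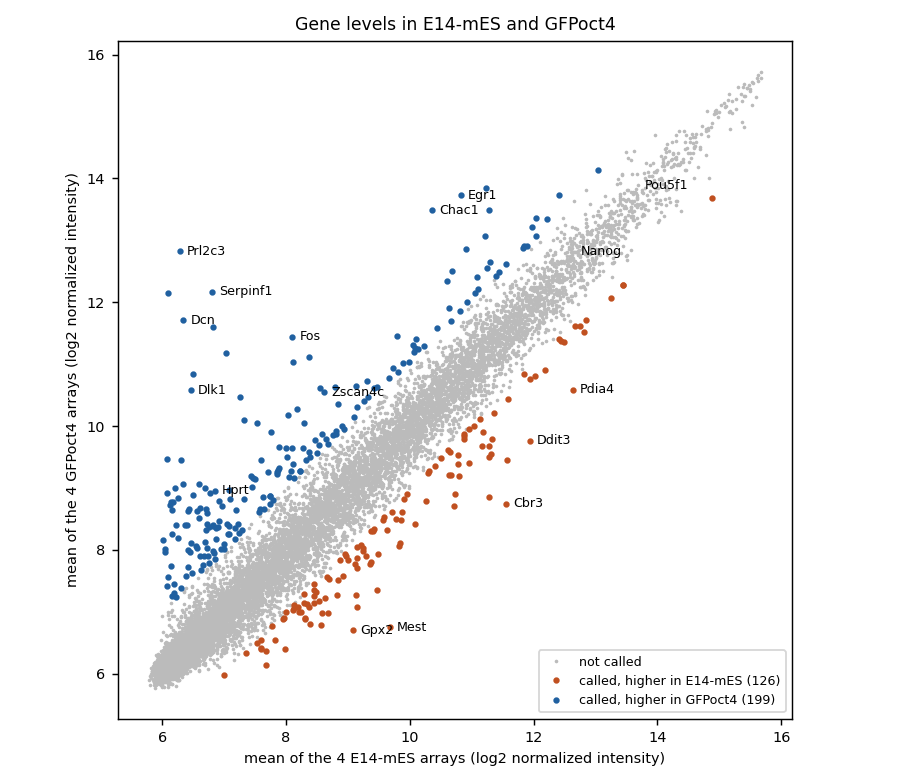
Mean log2 normalized intensity of each of 16593 genes on the 4 E14-mES arrays (horizontal axis) and the 4 GFPoct4 arrays (vertical axis), with called genes in colour. Pou5f1 and Nanog lie on the diagonal among the bright genes, and the genes furthest from it are higher in GFPoct4 and dim in E14-mES, led by Prl2c3 with means of 6.28 and 12.82.

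The core pluripotency factors gave no call. Pou5f1, the central factor of the network, was at 13.61, 13.85, 13.67 and 13.60 on E14-mES arrays 1 to 4 and at 14.17, 13.88, 13.74 and 13.78 on GFPoct4 arrays 1 to 4. The groups overlapped, and the difference of -0.21 ± 0.10 (SE) did not pass (adjusted p = 0.17). Nanog was at 12.71, 12.78, 12.57 and 12.55 against 12.86, 12.96, 12.81 and 12.63, also overlapping, with a difference of -0.16 ± 0.09 (adjusted p = 0.252). Sox2 differed by -0.25 ± 0.15 (adjusted p = 0.306), and without both arrays that stood apart by 0.02. The sign of all 3 differences turned with the scaling, as given under the processing alternatives, so no order of the groups can be read from them.

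Of 23 measured genes of core and naive pluripotency, 1 was called (4.35%, beside 1.96% of all genes). The median difference of the list was -0.01 beside 0.01 over all genes. At an unadjusted p under 0.05 in limma, with no limit on size, 4 were higher in E14-mES and 8 in GFPoct4. Together these were 52.2% of the list, beside 29% of all genes. The called gene was Dppa3 (Stella), a maternal factor that protects DNA methylation in the early embryo and whose level varies among ES cells. It was at 9.62, 9.84, 9.60 and 8.86 in E14-mES and at 7.57, 8.12, 8.07 and 7.94 in GFPoct4. The groups did not overlap, and both arrays that stood apart were the lowest of their group. The difference was 1.55 ± 0.16 (2.93-fold higher in E14-mES, adjusted p = 3.59e-08) and 1.64 without those arrays. C57-mES, at 12.35, lay above both. Klf4, a naive pluripotency factor, passed the test but not the 2-fold limit, at -0.80 ± 0.10 (adjusted p = 1.61e-06). Myc differed by 0.30 ± 0.11 (adjusted p = 0.051) and was above background on 1 of 4 GFPoct4 arrays.

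Among 18 measured genes of the primed epiblast and neural list, 3 were higher in E14-mES and 0 in GFPoct4, beside 0.759% and 1.2% of all genes. Otx2, a homeobox factor of the epiblast and anterior brain, was at 10.81, 10.69, 10.83 and 10.86 in E14-mES and at 9.17, 9.09, 9.25 and 9.27 in GFPoct4. The E14-mES arrays were all above the GFPoct4 arrays by more than the range within either group (difference 1.60 ± 0.09, 3.04-fold, adjusted p = 2.28e-13). The de novo DNA methyltransferase gene Dnmt3b was higher by 1.17 ± 0.07 (adjusted p = 7e-12), and Dnmt3l, its catalytically inactive cofactor, by 1.19 ± 0.11 (adjusted p = 5.71e-09). These were also the only calls among 20 genes of DNA methylation and Polycomb. The call of Dnmt3b was lost, at 0.98, where the mean of its 2 probes was used. Summed over the list, levels ranged from 40192 to 49976 in E14-mES and from 18814 to 23091 in GFPoct4, with C57-mES at 47100 and sFB-protein-iPS at 22903. Dnmt3l (means 14.87 and 13.68) and Dnmt3b (13.24 and 12.07) make up most of these linear sums, which largely restate those genes. Of the 18 genes, 7 were above background on all 4 arrays of a group. The median difference of the list was 0.09, beside 0.01 over all genes. At an unadjusted p under 0.05 in limma, 4 were higher in E14-mES and 2 in GFPoct4.

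Epithelial genes gave the most calls toward E14-mES of any list: 6 of 19 measured were higher in E14-mES and 0 in GFPoct4, beside the 0.759% of all genes, with a median difference of 0.57. Esrp1, a splicing regulator of epithelial cells, was at 11.33, 10.98, 11.12 and 11.71 in E14-mES and at 8.95, 8.85, 8.76 and 8.88 in GFPoct4. No array overlapped, and the difference was 2.43 ± 0.12 (5.37-fold, adjusted p = 6.6e-14). C57-mES, at 8.94, was near GFPoct4 for this gene, and sFB-protein-iPS, at 10.28, lay between the groups. Cldn6, a tight junction claudin of early epithelia, was at 11.35, 11.43, 11.39 and 11.06 against 9.73, 9.49, 9.42 and 9.57. Here C57-mES, at 11.30, was near E14-mES, and the difference was 1.75 ± 0.10 (adjusted p = 3.31e-13). Pkp2 (plakophilin of desmosomes, 1.49), Krt17 (1.45), Gja1 (the gap junction protein connexin 43, 1.29) and Krt19 (1.04) were the other calls, and Krt17 and Krt19 are keratins. Cdh1, the E-cadherin that holds ES colonies together, differed by 0.39 and was not called.

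**Figure D2:**
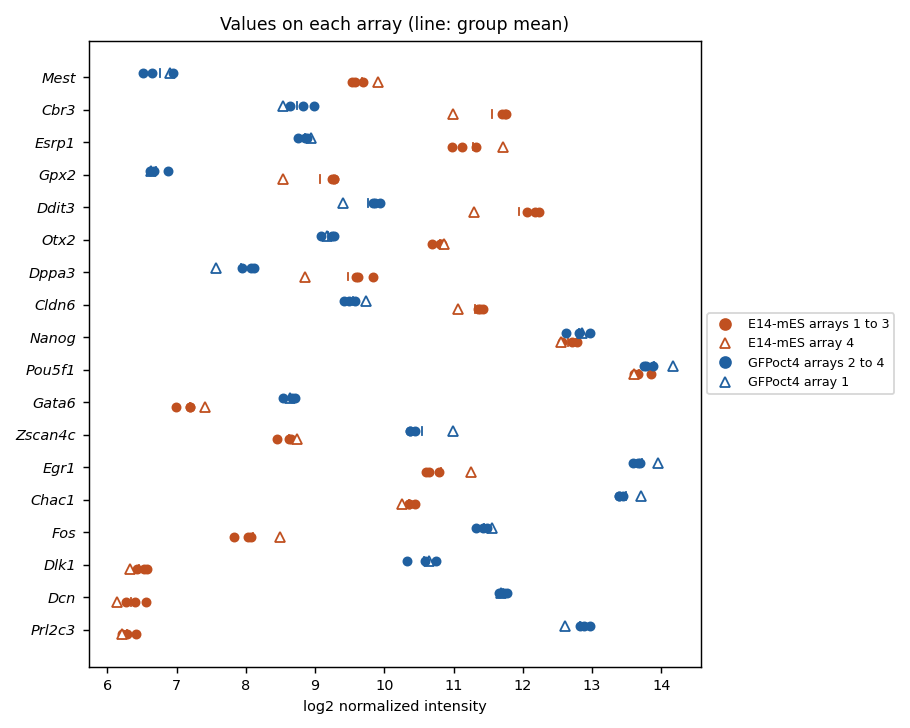
Log2 normalized intensity of chosen genes on each of the 8 arrays, with open triangles for the array of each group that stood apart and a short line at each group mean. Nanog and Pou5f1 overlap between the groups, and the other genes drawn do not.

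The largest differences toward E14-mES were in genes of unlike function. Mest, an imprinted gene expressed from the paternal copy, was at 9.58, 9.53, 9.70 and 9.90 in E14-mES and at 6.90, 6.64, 6.95 and 6.52 in GFPoct4, where it was above background on 2 of 4 arrays. All E14-mES arrays were far above all GFPoct4 arrays, at 2.92 ± 0.13 (7.59-fold, adjusted p = 6.82e-15). C57-mES, at 6.43, and sFB-protein-iPS, at 6.59, were as low as GFPoct4. Cbr3, a carbonyl reductase, was at 11.74, 11.76, 11.70 and 10.99 against 8.54, 8.83, 8.63 and 8.99, with E14-mES array 4 the lowest of its group (difference 2.80 ± 0.14, 6.98-fold, adjusted p = 6.6e-14). Kndc1 was at 10.74, 10.63, 10.67 and 10.82 against 8.68, 8.75, 8.74 and 8.66, a difference of 2.01 ± 0.08 (adjusted p = 1.26e-15). It varied little within either group.

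The rest of the leading 15 spanned 2.38 down to 1.76 without overlap of the groups. Slc40a1, the iron exporter ferroportin, was higher by 2.11 and Nxt2, of the mRNA export machinery, by 2.12. Tek, the receptor of angiopoietins, was higher by 1.86, and the cartilage matrix gene Matn1 by 2.07. Timm21, of the mitochondrial import machinery, was higher by 1.83, with 4 probes that ranged from 0.30 to 1.83. Dnajc6, which uncoats clathrin vesicles in neurons, was higher by 1.78. Cntnap2 (a neurexin relative, 1.78, above background on 2 of 4 GFPoct4 arrays) and Clstn3 (calsyntenin of synapses, 1.76) were also higher in E14-mES. The call of Clstn3 was lost, at 0.99, where the mean of its 2 probes was used.

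Of 20 measured imprinted genes 5 (25%) were called, in both directions, beside 1.96% of all genes. Besides Mest, Grb10, an adaptor that restrains insulin and growth factor receptors, was higher in E14-mES by 1.60 ± 0.11, and Phlda2, which limits placental growth, by 1.22 ± 0.18. Toward GFPoct4, Dlk1, a Notch-like protein of growing tissues, was at 10.65, 10.75, 10.32 and 10.59 against 6.53, 6.57, 6.42 and 6.33, all 4 of the latter below background. It was at least 14.3-fold higher in GFPoct4 (difference -4.11 ± 0.14, adjusted p = 7.08e-17). The growth factor gene Igf2 was higher in GFPoct4 as well (-1.14).

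Toward GFPoct4 the largest differences were in a pair of proliferin genes and in Dcn, Serpinf1 and Bgn. Prl2c3, a proliferin of the prolactin family, was at 12.61, 12.82, 12.88 and 12.98 in GFPoct4 and at 6.21, 6.29, 6.42 and 6.21 in E14-mES, below background on all 4. It was at least 67.7-fold higher in GFPoct4 (difference -6.54 ± 0.30, adjusted p = 1.82e-14). Prl2c4, at least 42.6-fold higher, is a near-identical copy, so its probe and that of Prl2c3 may read the same RNA. These were the 2 calls among 14 measured trophoblast genes (14.3%, beside 1.96% of all genes), and proliferins are also made by growing fibroblasts. FVB-sFB was at 13.51 for Prl2c3, C57-mES at 10.54 and sFB-protein-iPS at 8.03.

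Dcn (decorin), a proteoglycan of connective tissue matrix, was at 11.69, 11.65, 11.77 and 11.73 in GFPoct4 and at 6.40, 6.27, 6.55 and 6.13 in E14-mES. The GFPoct4 arrays lay within 0.11 of each other, and no E14-mES array was above background, so the gene was at least 31.4-fold higher in GFPoct4 (difference -5.37 ± 0.11, adjusted p = 1.03e-21). Serpinf1 (pigment epithelium-derived factor) was at 12.37, 12.11, 12.02 and 12.19 against 6.79, 6.60, 7.05 and 6.81, above background on 3 of 4 E14-mES arrays (41.1-fold, adjusted p = 1.03e-21). Bgn (biglycan, a relative of decorin) was 27.6-fold higher, also with 3 of 4 E14-mES arrays above background. Timp2, an inhibitor of matrix metalloproteinases, was above background everywhere and 17.6-fold higher (difference -4.14 ± 0.11, adjusted p = 8.44e-20). Cav1, the coat protein of caveolae, and Mgp (matrix Gla protein) were at least 6.60-fold and 6.56-fold higher. Ecm1 (9.31-fold) and Igfbp4, which binds insulin-like growth factors (7.57-fold), were higher too. Cxcl1, a chemokine, was at 10.66, 10.80, 10.84 and 11.05 against 6.36, 6.58, 6.55 and 6.48, at least 17.1-fold higher.

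Markers of fibroblasts or feeder cells moved with these genes. Of 23 measured, 0 were higher in E14-mES and 8 in GFPoct4, beside the 1.2% of all genes called that way. Their linear levels summed to between 4266 and 4829 in E14-mES and between 12031 and 12528 in GFPoct4, to 8436 in C57-mES, to 4857 in sFB-protein-iPS and to 297418 in FVB-sFB. Most of the rise from E14-mES to GFPoct4 lies in Dcn (means 6.34 and 11.71), Vim (9.795 and 11.46) and Fbln2 (7.32 and 10.10). These are called genes, so the sums of those groups largely restate their calls. Besides Dcn, the calls were Fbln2 (fibulin, -2.77), Acta2 (smooth muscle actin, -2.49), Lox (the collagen crosslinking lysyl oxidase, -2.03), Ccl2 (a chemokine, -1.92), Thbs2 (thrombospondin, -1.91), Vim (vimentin, -1.66) and S100a4 (-1.04). The other probes of Fbln2 differed by only -0.31 and -0.32. Acta2 was below background on all 4 E14-mES arrays and at 8.70, 8.53, 8.65 and 8.72 in GFPoct4, while its other 3 probes differed by -0.15 to -0.74, and the call was lost, at -0.94, with the mean of its probes. The same 8 genes were counted without both arrays that stood apart.

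The level of these markers relative to FVB-sFB differed from gene to gene. Of the normalized FVB-sFB intensity, the GFPoct4 mean was 18.9% for Dcn, 12.4% for S100a4, 11.2% for Vim, 11.1% for Ccl2, 4.1% for Fbln2, 0.98% for Thbs2, 0.807% for Acta2 and 0.692% for Lox. Col1a1, the main collagen of fibroblasts, was at 12.64 in FVB-sFB and below background on all 8 arrays of E14-mES and GFPoct4. Of the 23 markers 8 were not above background on any GFPoct4 array, Col1a1, Col3a1, Col5a2, Lum and Thbs1 among them, and 12 on any E14-mES array. The shares keep the background part of the intensity, and Col5a2 was still at 24.1% of FVB-sFB in GFPoct4, so they are not shares of RNA. Thy1, a surface antigen of fibroblasts, was at 9.26, 9.50, 9.42 and 8.79 in E14-mES and at 9.55, 9.88, 10.01 and 9.98 in GFPoct4. Its difference of -0.61 ± 0.17 passed the test (adjusted p = 0.0117) but not the 2-fold limit. It did not pass after median centring (-0.44, adjusted p = 0.0752) or in the authors' log2 value table (-0.26, adjusted p = 0.409). In bulk RNA, fewer cells of a type and less RNA per cell cannot be told apart, and the part of fibroblast-like RNA in the genes higher in GFPoct4 was not tested.

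The called genes were set beside FVB-sFB as a whole. For 128 of the 199 genes higher in GFPoct4 (64.3%) the FVB-sFB mean was above all GFPoct4 arrays, and for 26 (13.1%) FVB-sFB was not above background on any array. Of the 126 genes higher in E14-mES, the FVB-sFB mean was above all E14-mES arrays for 13 (10.3%), and FVB-sFB was not above background for 49 (38.9%). Over all genes tested, the FVB-sFB mean was above all 8 arrays for 27.1% and FVB-sFB was not above background for 41.2%, so the 38.9% was near the share of all genes. The median FVB-sFB level was 10.98 for the genes higher in GFPoct4 and 7.30 for those higher in E14-mES, beside 6.89 over all genes. Of the leading 15 genes of GFPoct4, FVB-sFB was above all GFPoct4 arrays for 10, and Cxcl1, Dlk1, Fos, Chac1 and Egr1 were the others. Dlk1 was at 10.58 in GFPoct4 and 8.92 in FVB-sFB, and Chac1 at 13.49 and 12.50.

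**Figure D3:**
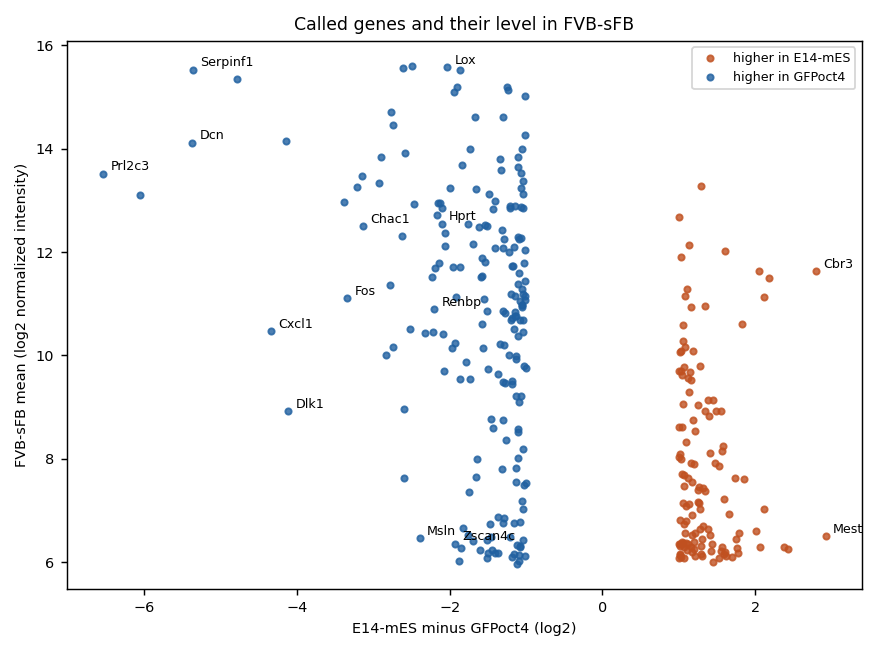
Each point is a called gene, with its E14-mES minus GFPoct4 log2 difference on the horizontal axis and its mean log2 normalized intensity in FVB-sFB on the vertical axis. Genes higher in GFPoct4 have a median FVB-sFB level of 10.98 and genes higher in E14-mES of 7.30, and Zscan4c is among those near background in FVB-sFB.

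Hprt, the purine salvage enzyme whose loss is used to select some ES lines, was at 6.90, 6.92, 6.58 and 6.99 in E14-mES, above background on 3 of 4 arrays, and at 8.96, 9.00, 8.92 and 8.93 in GFPoct4. The GFPoct4 arrays were within 0.09 of each other and all above the E14-mES arrays (difference -2.11 ± 0.13, 4.31-fold, adjusted p = 2.68e-12). Both groups were far below C57-mES, at 13.25, and FVB-sFB, at 12.54, and the GFPoct4 mean was 8.32% of the FVB-sFB intensity. sFB-protein-iPS was at 6.53. Of the other Hprt probes, one differed by -1.003 and was above background only on the 4 GFPoct4 arrays, and one differed by 0.12 with none of the 8 arrays above background. The call was lost, at -0.996, where the 3 were averaged. Among the other genes of purine synthesis and salvage, Gart, of the de novo pathway, was higher in E14-mES by 1.13 and the adenosine kinase gene Adk by 1.00. Both fell short of 2-fold without the arrays that stood apart, at 0.96 and 0.98.

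Immediate early genes, which growth factors and stress induce within minutes without new protein, were the list with the largest share of calls. Of 19 measured, 9 were higher in GFPoct4 and 0 in E14-mES, beside 1.2% and 0.759% of all genes, with a median difference of -0.69. Without both arrays that stood apart, 8 were higher in GFPoct4 and the median was -0.64. Fos was at 11.55, 11.42, 11.48 and 11.33 in GFPoct4 and at 8.08, 7.82, 8.03 and 8.49 in E14-mES, with no overlap (10.1-fold, difference -3.34 ± 0.11, adjusted p = 4.1e-17). Egr1, a zinc finger factor, was at 13.95, 13.59, 13.67 and 13.70 against 10.65, 10.61, 10.79 and 11.25 (7.48-fold, adjusted p = 9.97e-16). On both genes E14-mES array 4 was the highest of its group, and still below every GFPoct4 array.

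Ccn2 (connective tissue growth factor) was higher in GFPoct4 (-2.62 ± 0.12), and Fosb (-1.66), Egr2 (-1.58), Jun (-1.50), Atf3 (-1.47), Ccn1 (-1.30) and Junb (-1.16) were the other calls. Junb lost its call without both arrays, at -0.95. The reference groups stood with GFPoct4 for the leading genes. Fos was at 10.91 in C57-mES, 11.71 in sFB-protein-iPS and 11.11 in FVB-sFB, and Egr1 at 13.53, 13.86 and 13.85. The feedback genes of FGF and ERK signalling gave 3 calls of 16, all higher in GFPoct4, beside 1.2% of all genes called that way. These were Fos and Egr1 again, and Phlda1 (-1.05), whose call was lost without both arrays, at -0.99. The median difference of the list was -0.05. At an unadjusted p under 0.05 in limma, 6 of its genes were higher in E14-mES and 5 in GFPoct4.

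Immediate early promoters are known for the CArG box, the site of serum response factor, so the sequence from 250 bases before to 50 after each gene's start was searched on both strands in RefSeq (GRCm38.p6). Of the 9 called genes 7 had a window, and Egr1 and Ccn2 had none and were not searched. Only Egr2 held a CArG box in any of its windows, beside 1.81% of the 27025 genes with a window, while the cAMP response element TGACGTCA and the AP-1 site TGANTCA were in 0 of the 7, beside 2.03% and 8.97% of genes. The Egr2 window at chr10:67537619-67537918, plus strand, is shown for its CArG box, in capitals:
Egr2: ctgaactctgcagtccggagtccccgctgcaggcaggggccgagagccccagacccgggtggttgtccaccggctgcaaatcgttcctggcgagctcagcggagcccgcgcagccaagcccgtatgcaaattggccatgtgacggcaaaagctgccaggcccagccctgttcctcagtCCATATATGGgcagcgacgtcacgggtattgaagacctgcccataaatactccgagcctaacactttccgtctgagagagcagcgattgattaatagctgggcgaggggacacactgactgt
A match is a run of letters and no measured binding, and the windows without one say nothing about sites elsewhere.

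Most calls of the amino acid stress response, run by the factor Atf4 when amino acids are short or proteins misfold, were higher in GFPoct4. Of 32 measured genes 6 were higher in GFPoct4 and 1 in E14-mES, beside 1.2% and 0.759% of all genes. At an unadjusted p under 0.05 in limma, 20 were higher in GFPoct4 and 3 in E14-mES. The median difference was -0.48, and it was -0.29 after median centring and -0.12 in the authors' log2 value table. Chac1, which degrades glutathione and is a strong target of the pathway, was at 13.71, 13.45, 13.39 and 13.39 in GFPoct4 and at 10.44, 10.35, 10.36 and 10.26 in E14-mES. The groups were far apart (8.77-fold, difference -3.13 ± 0.13, adjusted p = 1.77e-15), with C57-mES between them at 11.79. Ddit3 (CHOP), a factor of the same response, went the other way, at 12.05, 12.23, 12.18 and 11.29 in E14-mES and at 9.41, 9.94, 9.83 and 9.87 in GFPoct4. It was 4.52-fold higher in E14-mES (2.18 ± 0.16, adjusted p = 7.56e-11), and C57-mES, at 9.42, was near GFPoct4.

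Of the other calls toward GFPoct4, the lipoprotein receptor gene Vldlr differed by -1.15 (-0.96 after median centring, -0.78 in the value table and -0.76 with the mean of its probes, none of them called), Nupr1 by -1.10, Sesn2 (sestrin, an inhibitor of growth signalling) by -1.09 and Cebpb (a factor of stress and inflammation) by -1.07. Without both arrays the count toward GFPoct4 was 4, and it was 2 after median centring and 2 in the authors' log2 value table. Atf4 itself differed by -0.61 and the asparagine synthetase gene Asns by -0.26, neither of them called. Among 18 genes of heat shock and unfolded proteins, Pdia4, a disulfide isomerase of the endoplasmic reticulum, was 4.13-fold higher in E14-mES (2.05 ± 0.13, adjusted p = 5.09e-12). Herpud1, of the degradation of misfolded proteins, was higher in GFPoct4 (-1.04) and lost its call without both arrays, at -0.93.

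Glutathione and redox genes gave 3 calls toward E14-mES and 1 toward GFPoct4 of 29, beside 0.759% and 1.2% of all genes. The glutathione peroxidase gene Gpx2 was at 9.27, 9.24, 9.27 and 8.53 in E14-mES and at 6.63, 6.62, 6.88 and 6.67 in GFPoct4, where it was above background on 1 of 4 arrays (5.20-fold, adjusted p = 4.06e-13). C57-mES, at 9.90, and sFB-protein-iPS, at 9.86, were above the E14-mES arrays. Txnip, an inhibitor of thioredoxin, was higher in E14-mES by 1.16 and the transferase gene Gsta3 by 1.00. Gsta3 lost the call with the mean of its 2 probes, at 0.53, and without E14-mES array 1 (0.96), E14-mES array 3 (0.94) or GFPoct4 array 1 (0.94). Toward E14-mES, 5 genes of the list were called in the authors' log2 value table. Gstp1 was higher in GFPoct4 (-1.04 ± 0.21), with E14-mES array 4 at 11.00 and the other 3 at 12.25 to 12.45, and its call was lost without both arrays, at -0.85.

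Primitive endoderm is the first tissue that splits from the pluripotent cells, and some ES cells in culture switch its genes on. Of 19 measured endoderm genes 4 were higher in GFPoct4 and 0 in E14-mES, also without both arrays that stood apart. Of all genes, 1.2% were called higher in GFPoct4. The median difference of the list was -0.35. Dab2, an endocytic adaptor, was at 10.20, 9.99, 10.09 and 9.94 in GFPoct4 and at 7.32, 7.60, 7.50 and 7.74 in E14-mES, with no overlap (5.72-fold, difference -2.52 ± 0.09, adjusted p = 3.1e-16). Gata6, a founding factor of the lineage, was at 8.64, 8.71, 8.66 and 8.54 against 7.20, 6.99, 7.20 and 7.41 (2.71-fold, -1.44 ± 0.22, adjusted p = 1.83e-05). Sox7 was 2.74-fold higher and Pdgfra, a growth factor receptor, 3.64-fold, the latter with 2 of 4 E14-mES arrays above background. FVB-sFB was at 10.50 for Dab2, 11.70 for Pdgfra and 8.59 for Gata6, and near background, at 6.49, for Sox7. sFB-protein-iPS was above GFPoct4 for Gata6, at 11.51, and Sox7, at 9.75. Summed over the list, the E14-mES arrays were at 14296 to 17325 and the GFPoct4 arrays at 19187 to 21499. The sum was 11005 in C57-mES, 33617 in sFB-protein-iPS and highest, 73879, in FVB-sFB, so it is not particular to endoderm.

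Genes of the 2-cell-like state, a rare and passing state of ES cells in which genes of the cleavage embryo are on, were higher in GFPoct4 in 4 of 12 measured and in E14-mES in 0. Over all genes the shares called in those directions were 1.2% and 0.759%. Zscan4c was at 11.00, 10.37, 10.44 and 10.38 in GFPoct4 and at 8.45, 8.65, 8.62 and 8.74 in E14-mES. The groups did not overlap (3.81-fold, -1.93 ± 0.12, adjusted p = 8.01e-12), and GFPoct4 array 1 was the highest. Tmem92 was at 9.10, 8.99, 8.91 and 8.86 against 7.19, 7.09, 6.88 and 7.17 (3.68-fold, adjusted p = 1.18e-14). Tcstv1 (-1.69) and Tcstv3 (-1.40), which are expressed in the 2-cell embryo, were the others. These 4 genes were at 6.02 to 6.42 in FVB-sFB, at 6.62 to 7.57 in C57-mES and at 6.29 to 6.95 in sFB-protein-iPS, so GFPoct4 was the highest of the 5 groups. Zscan4c and the Tcstv genes have near-identical copies that their probes may also read.

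**Figure D4:**
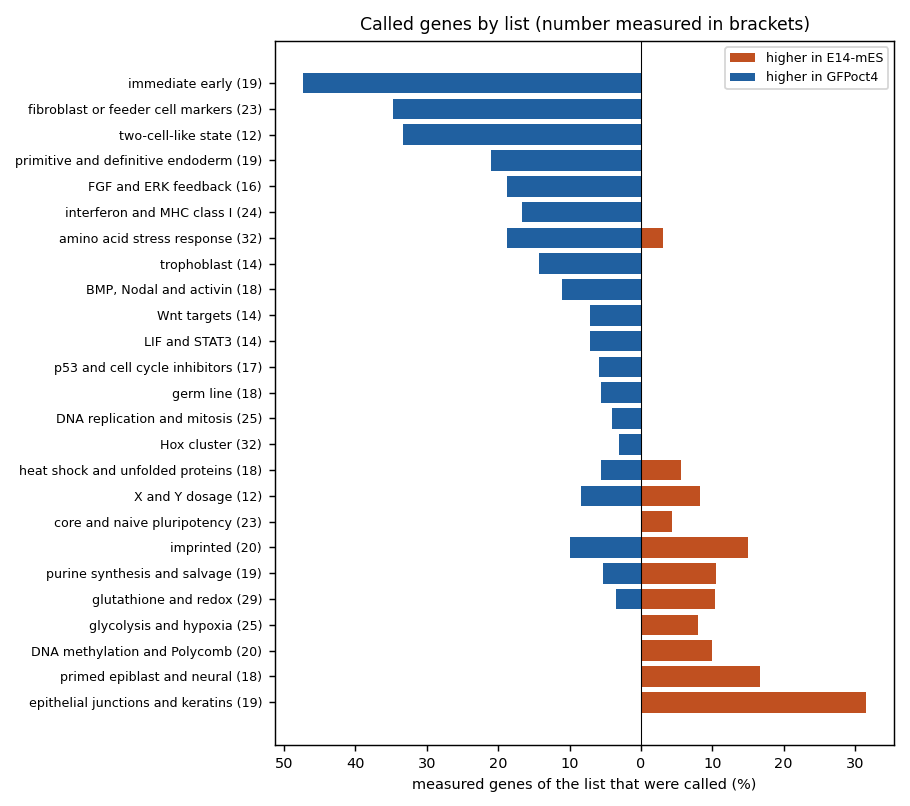
Percentage of the measured genes of each list that were called higher in E14-mES (right) or in GFPoct4 (left), with the number measured in brackets, for the 25 lists with at least 1 call. Immediate early genes reach the furthest to the left, with 9 of 19, and epithelial genes the furthest to the right, with 6 of 19. Over all genes the shares were 1.2% higher in GFPoct4 and 0.759% higher in E14-mES.

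Other signalling and cell identity lists held 1 or 2 calls each, and 1.96% of all genes were called. Toward GFPoct4, 2 of 18 BMP, Nodal and activin genes (11.1%) were higher: Lefty1, a Nodal inhibitor, was 2.47-fold higher (-1.30 ± 0.10, and -0.92 and not called in the authors' log2 value table) and Grem1, a BMP antagonist, at least 3.80-fold. Grem1 was at 11.52 in FVB-sFB. The cyclin gene Ccnd1 (-1.34) was the one call of 14 Wnt targets and of 25 genes of DNA replication and mitosis, and Junb the one call of 14 genes of LIF signalling. Cdkn2b, a cell cycle inhibitor, was 3.89-fold higher in GFPoct4, with 1 of 4 E14-mES arrays above background and FVB-sFB at 11.70. Rhox5 (-1.52) was the one call of 18 germ line genes (5.56%), and both groups were far below C57-mES, at 13.38. Hoxa5 (-2.07, E14-mES below background) was the one call of 32 Hox genes (3.12%), near the share of all genes.

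MHC class I and interferon genes were higher in GFPoct4 in 4 of 24 (2 without both arrays that stood apart, and 2 in each of the other scalings). Of all genes, 1.2% were called that way. B2m, the shared light chain of MHC class I, was at 11.88, 12.40, 12.56 and 12.50 in GFPoct4 and at 10.82, 10.79, 10.80 and 9.99 in E14-mES (3.33-fold, -1.74 ± 0.16, adjusted p = 1.14e-08). H2-K1, a heavy chain, was at 7.88 to 7.95 in GFPoct4 and below background in E14-mES, and at 6.86 in FVB-sFB and 6.94 in C57-mES. Its second probe was below background on all 8 arrays and differed by 0.03, and the call was lost, at -0.63, with the mean of both. H2 genes differ in sequence between mouse strains, and whether the probe reads all forms alike was not tested. Ifi27 (-1.05) and H2-T23 (-1.03) lost the call without both arrays, at -0.95 and -0.89.

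The 22 cytosolic ribosomal protein genes and the 28 of oxidative phosphorylation, genes of every cell, gave 0 calls, with medians of -0.02 and 0.03, although the latter separated E14-mES array 4 and GFPoct4 array 1 from the rest. At an unadjusted p under 0.05 in limma, with no limit on size, 3 and 7 of them passed (13.6% and 25%), beside 29% of all genes. Genes of the primitive streak and mesoderm gave 0 calls of 14, with 4 (28.6%) at an unadjusted p under 0.05. Those of cholesterol synthesis gave 0 of 16, with 10 (62.5%) at an unadjusted p under 0.05 and a median of 0.31, and under the other scalings 1 and 2 were called higher in E14-mES. Glycolysis and hypoxia gave 2 calls of 25, higher in E14-mES, beside 0.759% of all genes called that way. They were Egln3, an oxygen-sensing hydroxylase (1.03), and the glycogen phosphorylase gene Pygl (1.05). Pygl lost the call without both arrays, at 0.90, with the mean of its probes (0.83) and without E14-mES array 4 (0.93). Egln3 lost the call with the mean of its probes, at 0.67, and without E14-mES array 4 (0.98) or GFPoct4 array 2 (0.96). The count was 4 after median centring and 6 in the authors' log2 value table. Among 12 genes that report X and Y dosage, 1 was called higher in E14-mES and 1, Hprt, in GFPoct4, beside 0.759% and 1.2% of all genes. Eif2s3y, on the Y chromosome, was at 10.60, 10.52, 10.52 and 10.91 in E14-mES and at 9.33, 8.93, 9.24 and 9.35 in GFPoct4. It was 2.69-fold higher in E14-mES (difference 1.43, adjusted p = 1.38e-09). The 2 Y chromosome genes above background on all 8 arrays, Eif2s3y among them, had a lower median difference, 0.77. Xist, the RNA of the inactive X, was above background on 0 of 4 E14-mES and 2 of 4 GFPoct4 arrays and differed by -0.17 (adjusted p = 0.557).

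One stretch of the X chromosome stood apart, as found after the values were seen and given without a test. Along it lie 26 genes, from Nsdhl to Brcc3, that were above background on all 8 arrays. Of these, 24 were lower in E14-mES than in GFPoct4, 21 with an adjusted p under 0.05, and 6 were called, with a median difference of -0.67 (-0.69 without both arrays that stood apart). Renbp, a renin-binding protein that converts amino sugars, was at 13.62, 13.54, 13.38 and 13.39 in GFPoct4 and at 11.40, 11.42, 11.43 and 10.87 in E14-mES (4.61-fold, -2.20 ± 0.12, adjusted p = 2.19e-13). Atp6ap1, a subunit of the vacuolar proton pump, was at 14.12, 13.66, 13.60 and 13.53 against 12.31, 12.33, 12.32 and 12.65 (-1.33 ± 0.11). The nuclear envelope gene Emd (-1.14), Idh3g of the citric acid cycle (-1.10), Ssr4 of protein translocation (-1.07) and Fam50a (-1.05) were the other calls. Without both arrays that stood apart 3 of the 6 were called, and Fam50a was at -0.99, Idh3g at -0.90 and Ssr4 at -0.88.

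Hcfc1 (0.26) and Slc6a8 (0.16), within the stretch, did not share the direction. The GFPoct4 mean was above C57-mES for 25 of the 26 genes and above sFB-protein-iPS for 25, with median differences of -0.95 and -0.91 of those groups from GFPoct4. The other 216 X genes measured this way had a median of 0.06, with 6 calls toward GFPoct4 and 7 toward E14-mES. Of these 216, 26 were lower in E14-mES with an adjusted p under 0.05. The GFPoct4 mean was above sFB-protein-iPS for 114 of the 216, and above C57-mES for fewer. Over the 216, the median differences of C57-mES and sFB-protein-iPS from GFPoct4 were 0.025 and -0.043. Over 7575 runs of 15 neighbouring genes genome-wide, the lowest median was -0.86, within this stretch from Slc6a8 to Slc10a3, and the next lowest apart from it was -0.51, on chromosome 13. The central 95% of runs lay between -0.26 and 0.25.

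**Figure D5:**
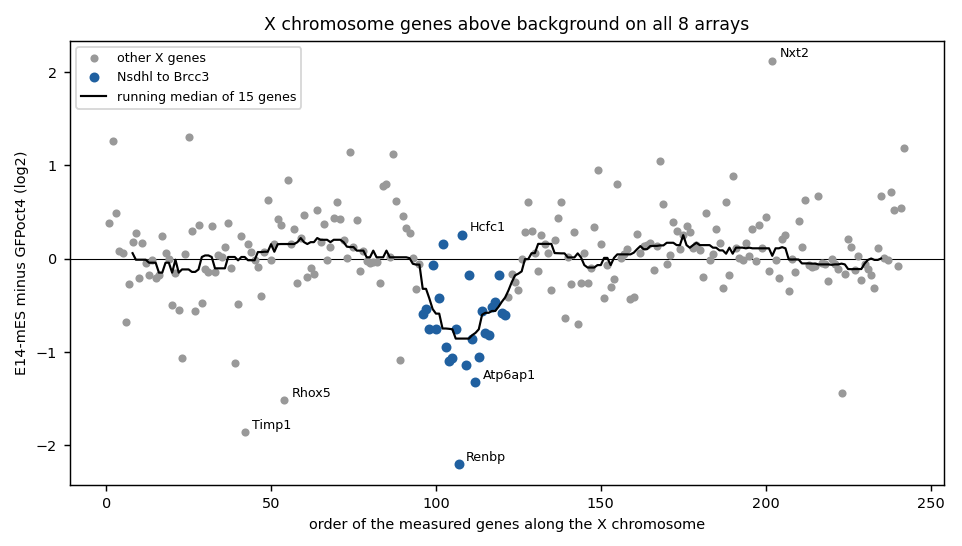
E14-mES minus GFPoct4 log2 difference of the 242 X chromosome genes above background on all 8 arrays, in their order along the chromosome, with the running median of 15 genes as a line. The 26 genes from Nsdhl to Brcc3 have a median of -0.67, and the line stays near 0 elsewhere.

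Set beside the other pluripotent groups, the called genes did not follow one of them. Of the 199 genes higher in GFPoct4, the C57-mES mean was nearer to GFPoct4 than to E14-mES for 116 and that of sFB-protein-iPS for 132, with both nearer for 97. Of the 126 higher in E14-mES, C57-mES was nearer to E14-mES for 60 and sFB-protein-iPS for 39, with both nearer for 30 and both nearer to GFPoct4 for 57. Mest, Ddit3 and Krt17 illustrate the spread: C57-mES was at 6.43, 9.42 and 9.39, near GFPoct4 in each, and sFB-protein-iPS was at 6.59, 9.34 and, above both groups, 12.74.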

How the data were processed

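Illumina bead arrays were hybridized from 500 ng of total RNA each, per the labels, and per the submitters' processing notes values were exported with BeadStudio (version not given). The deposited table holds linear intensity for 25697 probes, with no normalization stated by the authors. The authors' deposited value table holds log2 values equal to the log2 of that table within 5e-09. Of the per-sample columns 0 were left out.

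In R 4.3.3 with limma 3.58.1, intensities were background-corrected (normexp, offset 50), quantile-normalized over 20 arrays and taken to log2, with no filter. Of the probes 23978 carried 1 gene symbol, 0 several and 1719 none. The brightest probe stood for each of 16593 genes (4777 had several). Symbols were checked in a RefSeq table of GRCm38.p6, and 16 annotated probes had no gene there. A linear model with 5 groups was fitted to all arrays, with empirical Bayes moderation and Benjamini-Hochberg adjustment over all genes. Errors are standard errors of the fit. On simulated data, 98 of 100 changed genes were recovered at a log2 change of 1.5 and 100 of 100 at 2.5, among 16593 genes. Folds are "at least" where the dim group was above background on 0 of 4 arrays, taking the background level in its place. No slide, date or detection p-value was used.

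The genes described are the 15 largest called differences each way without overlap and without predicted names, up to 4 called members of each of 29 gene lists, the 8 genes furthest above and below on each array that stood apart, and Pou5f1, Nanog, Sox2, Klf4, Myc, Hprt, Xist, Thy1 and Col1a1. Other list members and the genes of the X stretch were named after their values were seen. Of 657 list entries 587 were measured. Members and lists were chosen with earlier results of these data known.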

Additional observations from a re-analysis of the deposited data

Results flagged for a closer look

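Of 168 groups of 4 arrays looked at, the 4 arrays of each of E14-mES and GFPoct4 for each named gene, 16 held 1 array far from the other 3 by Dixon's test, where chance gives about 1 in 20. Of these, 11 were E14-mES array 4 and 4 were GFPoct4 array 1. On the log2 scale, E14-mES array 4 was low for Cbr3 (10.99, others 11.70 to 11.76), Gpx2 (8.53, others 9.24 to 9.27), Phlda2 (11.26, others 12.25 to 12.30), Gstp1 (11.00, others 12.25 to 12.45) and B2m (9.99, others 10.79 to 10.82). It was also low for Ccnd1 (10.69, others 11.46 to 11.55) and Tcstv3 (7.37, others 8.02 to 8.08). It was high for Pdia4 (13.18, others 12.42 to 12.48), Vldlr (9.88, others 9.09 to 9.21), Ccn2 (11.68, others 11.04 to 11.11) and Pkp2 (11.58, others 10.99 to 11.06). GFPoct4 array 1 was high for Zscan4c (11.00, others 10.37 to 10.44), Ccn2 (14.20, others 13.70 to 13.75) and Clstn3 (8.18, others all at 8.03), and low for Grem1 (8.45, others 8.71 to 8.76). E14-mES array 1 was low for H2-K1 (6.56, others 6.63 to 6.64), all of them below background.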

How the results depend on the processing

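Of the 76 called genes that the naming rule picked, 58 kept the call in all 20 alternatives and 18 lost it in at least 1, 12 of them with the mean of a gene's probes and 9 without both arrays that stood apart. The number of calls was 325 and ran from 255 (mean of probes) to 423 (the authors' value table). Genes higher in E14-mES numbered 126, but 196 after median centring and 316 in the value table, and those higher in GFPoct4 199, but 107 in the value table. The last 2 scalings were also run without both arrays, an addition made after seeing the data, and gave 126 and 122 higher in E14-mES. Leaving out 1 array at a time gave 322 to 339 calls, 121 to 131 and 191 to 211 in the respective directions. Pou5f1 changed sign to 0.0065 (median centring), 0.17 (value table), and 0.0439 and 0.0675 in the same 2 without both arrays. Nanog did so to 0.13 (value table), and Sox2 to 0.11 (value table), 0.0171 (without both arrays), and 0.0586 and 0.0815 (median centring and value table without both arrays). None of these passed the test, and the cause was not tested. The deviations of arrays with the same replicate number, 1 to 4, correlated at -0.27, 0.23, 0.19 and -0.15, and 4 of 8 arrays correlated best with their own number. Pairs 1 and 4, the negative ones, each hold an array that stood apart. The check therefore cannot decide whether the replicate numbers pair the samples. A fit with the replicate block gave 325 calls, 126 and 199, and changed no call of a named gene. Signals near background limit the folds of dim genes.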
